A study of Mus musculus with 3 samples.

Results

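Zfp36l2 and the long stretch beside it on chromosome 17 were described by the histone marks called there in mouse hematopoietic stem cells. The regions described are all called regions of H3K27ac and H3K4me1 that overlap the window from 84240000 to 84630000 on chromosome 17 (mm9), which spans 390 kb and holds Zfp36l2 near 84.58 Mb. There were 112 such H3K27ac regions out of 93413 in the whole list, and 72 such H3K4me1 regions out of 155027. The window was picked with these same lists in view, in which 2 of the 10 largest acetylated domains lie there, so its acetylated length and the values that go with it are descriptions and carry no test.

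Zfp36l2 encodes an RNA-binding protein of the tristetraprolin family. Its paired zinc fingers bind AU-rich elements of messenger RNAs and bring in the deadenylation machinery, which shortens the life of the message. In blood the gene is known for its part in stem and progenitor cells, in red cell progenitors and, together with its relative Zfp36l1, in lymphocyte development. H3K27ac marks promoters and enhancers in use, and H3K4me1 marks enhancers and the flanks of promoters in use. Dense runs of acetylated regions far from a gene are a form in which distal regulatory DNA of cell identity genes is often found.

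The stem cells came from bone marrow of C57BL/6 mice aged 24 months, and carried the sorting label SP-KSL-CD150+ (side population cells with c-Kit and Sca-1, without lineage markers, and with CD150). Each mark was measured by chromatin immunoprecipitation sequencing in 1 library, made per the labels' design text from 50000 to 100000 cells, and the labels call each library a technical replicate from 1 biological replicate. No difference below therefore has a replicate check, and the sorted identity was not checked against marker genes, because the lists hold no expression. An input library of the same cells was not analysed here. Per peak summit, the regions of the window held a median of 15 reads for H3K27ac (lowest 9, highest 91) and of 24 for H3K4me1 (lowest 11, highest 59), against 13 and 20 over all regions.

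Between Haao, a gene of tryptophan breakdown, and Zfp36l2 the RefSeq table of assembly GRCm38 lists no protein-coding gene. It does list 13 other genes there, of which 11 are long non-coding RNA genes, 1 is a tRNA gene and 1 a pseudogene. Gm41640 and Gm19696 stand next to Zfp36l2 on that side, followed by 4933433H22Rik and Gm35551. On its other side come the non-coding Gm36279 and the protein-coding Thada. The stretch is thus empty of protein-coding genes only, and which regions overlap a non-coding gene was not examined, because that table is on another build than the peak lists. The position of Zfp36l2 used below is likewise only the one given for the window, 84.58 Mb, and distances to it carry that rounding. Before and after it mean lower and higher coordinates.

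H3K27ac covered 155.6 kb of the window, or 39.9%, and H3K4me1 covered 201.7 kb, or 51.7%. The marks shared 137.0 kb, which made up 88.1% of what was acetylated and 67.9% of what carried H3K4me1. Over the whole lists the same shares were 65.9% and 21.2%. The window held 0.278% of all acetylated length and 0.116% of all H3K4me1 length. Neither mark was called on 43.5% of it.

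Set among 6347 windows of the same length placed end to end along the autosomes, the window was ranked 1 in acetylated length and 3 in H3K4me1 length. The median window held 3.91 kb of H3K27ac and 15.03 kb of H3K4me1. The highest other window held 106.5 kb of H3K27ac. A window laid around chosen domains has an advantage over windows laid without regard to them. When windows were started every 10 kb, a setting chosen after seeing the data, the highest that did not overlap it held 127.7 kb, on chromosome 6 from 133930001 to 134320000.

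The marks thinned out on both sides. The 390 kb before the window held 71 H3K27ac regions over 43.3 kb and 62 H3K4me1 regions over 73.1 kb. The 390 kb after it held 30 H3K27ac regions over 18.9 kb and 28 H3K4me1 regions over 30.8 kb. Where Haao and Thada lie relative to the window's edges in mm9 was not examined. The median H3K27ac fold was 3.84 before the window, 4.43 inside it and 4.09 after it, against 3.86 over the whole list. A fold of 10 or more was reached by 5 of the 71 regions before it and 2 of the 30 after it. Over the whole list it was 7.77%. The highest single fold was 26.9 before the window, 21.0 inside it and 14.8 after it. The fold is the authors' own, the ratio of the summit to the local background.

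At the edges, the first H3K27ac region inside ran from 84245180 to 84246492 (4.43-fold, 14 reads), and the last one outside before it from 84231987 to 84232193 (4.43-fold, 14 reads). The last one inside ran from 84620819 to 84621078 and the first one outside after it from 84635395 to 84635649, both at 3.55-fold with 11 reads. For H3K4me1, the first region inside began at 84244709 (7.58-fold) and the last one outside before it ended at 84231197 (7.48-fold). The last H3K4me1 region inside began at 84605832 (3.16-fold) and the first one outside after it at 84635209 (2.32-fold).

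**Figure D1:**
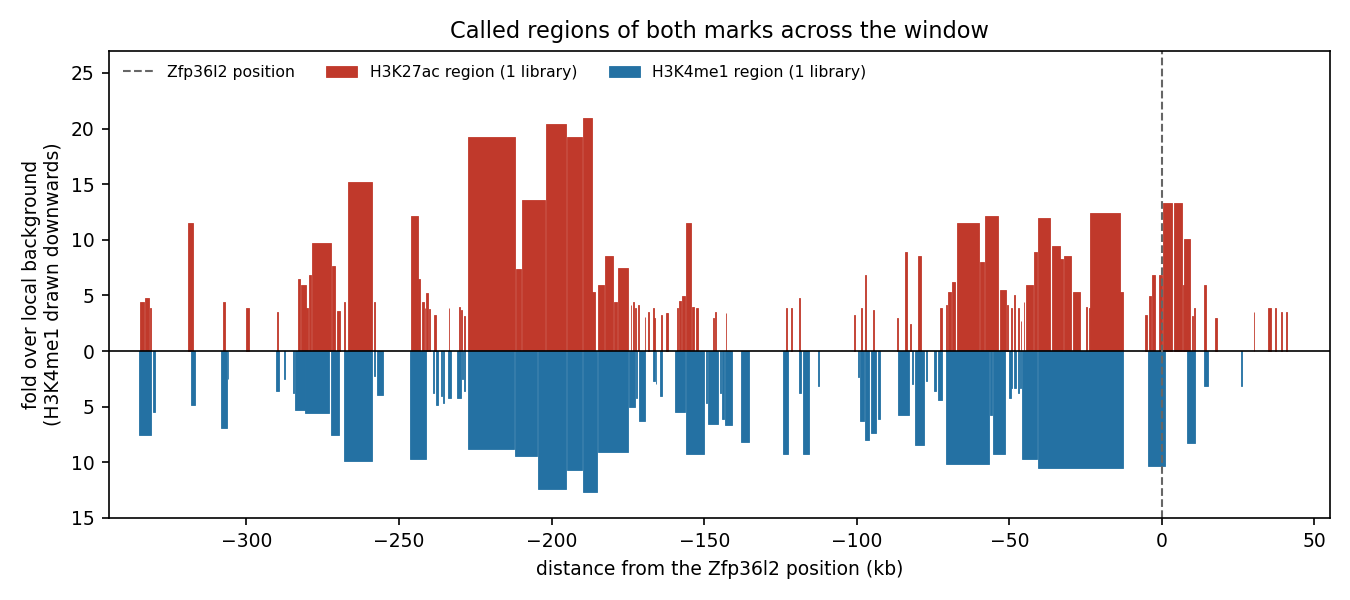
Called regions across the window. The x axis is the distance from the Zfp36l2 position in kb, bars are as wide as the regions, and height is the authors' fold over local background for H3K27ac (red, upwards) and H3K4me1 (blue, downwards), 1 library each. The 4 tallest red bars, the widest bar among them, have their summits 189.5 to 224.0 kb before the gene position, and a stretch with few red bars separates them from those near the gene.

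The acetylated regions fell into 2 large domains with a sparse stretch between them. Joining H3K27ac regions over gaps of up to 12500 bp gave 3 domains. The domain far from the gene ran from 84245180 to 84437300, with 59 H3K27ac regions over 90.8 kb of its 192.1 kb. The domain that holds the gene ran from 84478949 to 84621078, with 50 H3K27ac regions over 64.1 kb of its 142.1 kb. The far domain thus held more of the acetylation than the one with the gene. By acetylated length they ranked 3 and 8 among 30221 domains, the values for which the window was picked.

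Between them lay a domain of 3 weak regions, from 84456840 to 84461415, of 3.84, 3.84 and 4.73-fold with at most 15 reads. In the whole 41.6 kb between the large domains H3K27ac covered 1.89% and H3K4me1 21.5%. This stretch was set by gaps in H3K27ac, so its low acetylation follows from that choice. H3K4me1 was called on part of it, at a lower share than the 59.6 and 54.7% of the large domains. The strongest H3K4me1 regions there were from 84455953 to 84457315 and from 84462516 to 84464274, at 9.27-fold with 43 reads each, and from 84441954 to 84444701 at 8.21-fold with 38 reads. The last 2 of these met no H3K27ac region, and were the highest H3K4me1 regions of the window without one. They were followed by 2 regions at 6.11-fold, one from 84435802 to 84436343 and one from 84486980 to 84487664.

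**Figure D2:**
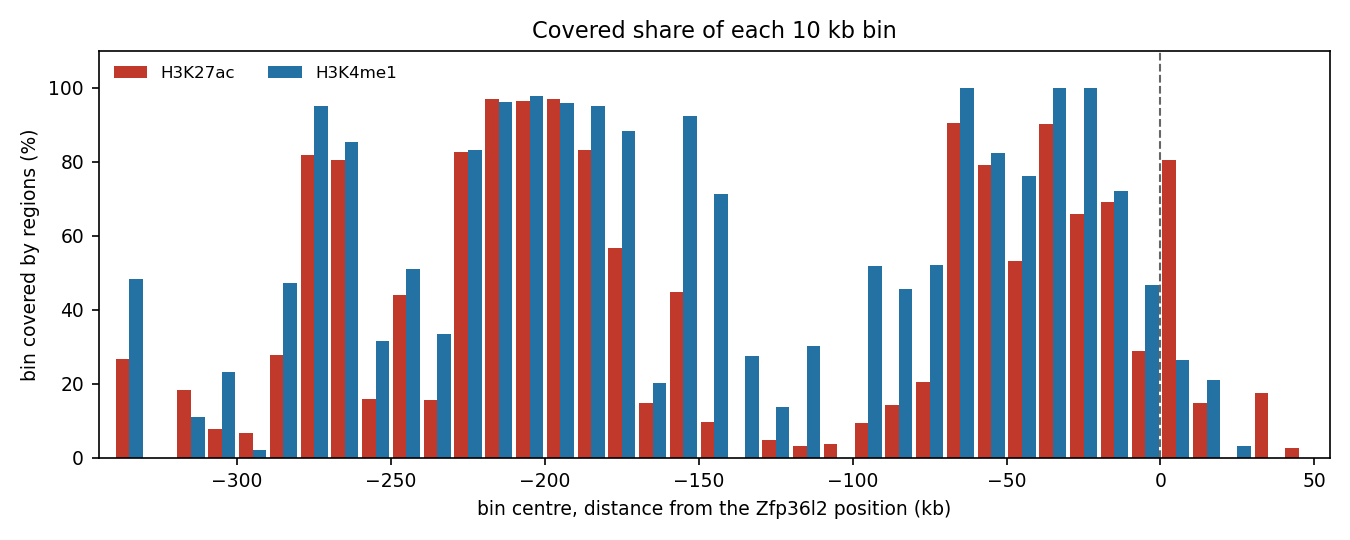
Share of each of the 39 consecutive bins of 10 kb covered by H3K27ac (red) and H3K4me1 (blue) regions, against the distance of the bin's centre from the Zfp36l2 position in kb. Both marks fill most of 6 neighbouring bins in the far domain, H3K4me1 exceeds H3K27ac in the bins of the sparse stretch other than the last (3.86% H3K27ac and 0% H3K4me1), and the bin just after the gene position is the one in which H3K27ac exceeds H3K4me1 by most (80.4 against 26.4%).

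In consecutive bins of 10 kb, H3K27ac covered 50% or more of 15 of 39 bins and H3K4me1 of 19. The bin with most acetylation was the one from 84380001 to 84390000, at 97.0% H3K27ac and 95.9% H3K4me1. The bins with least, at 0% H3K27ac, were those starting at 84250001, 84440001 and 84600001. The first of these had no H3K4me1 either, and the other two had 27.5% and 3.29%. H3K4me1 covered more than H3K27ac in 30 bins and less in 8. Across the 39 bins, which are neighbours in 1 library pair and share its depth and background, the covered shares had a Spearman rho of 0.839 (Pearson r 0.845).

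Inside the far domain most of the acetylation lay in 1 run. With gaps of up to 5 kb the window broke into 14 groups, and the largest ran from 84333843 to 84427883, between 246.2 and 152.1 kb before the gene position. It held 39 H3K27ac regions over 63.2 kb, and 94.4% of that length lay inside H3K4me1. A smaller group from 84297008 to 84322272 held 10 H3K27ac regions over 20.3 kb, again with 94.1% of the length inside H3K4me1. In the domain that holds the gene, a group from 84507350 to 84567187, ending 12.8 kb before the gene position, held 25 H3K27ac regions over 45.8 kb, with 97.5% of the length inside H3K4me1. The group around the gene position, from 84574600 to 84597942, held 12 H3K27ac regions over 12.4 kb, and 41.9% of that length lay inside H3K4me1. The last group, from 84610037 to 84621078, held 5 H3K27ac regions of at most 3.84-fold, and no H3K4me1.

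The strongest acetylation of the window lay in the far domain. Of the 112 H3K27ac regions, 16 (14.3%, exact 95% Clopper-Pearson interval 8.39 to 22.2%) reached 10-fold or more, against 7.77% of all H3K27ac regions. Such intervals hold counting error alone: neighbouring regions share their cells, and reads that carry no molecular identifier may be copies of 1 molecule. A region of 10-fold or more was more frequent here than in the list as a whole, in a window picked for its acetylation. The far domain held 9 of the 16 and the domain with the gene 7.

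The highest fold, 21.0, was at the region from 84390121 to 84393172, 3.05 kb wide, with its summit 189.5 kb before the gene position and 70 reads. Next came the region from 84378049 to 84384839 at 20.4-fold, with 68 reads. The third was the region from 84352492 to 84368009 at 19.2-fold, with 91 reads, and the fourth the one from 84385039 to 84389901 at 19.2-fold, with 64 reads. These 4 regions lie in the largest run. The fifth, from 84313112 to 84321131, was at 15.2-fold with 58 reads.

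Fold and reads rank the top regions differently. The region of 91 reads had the most reads of the window, and its local background of 3.78 reads was 1.59 times the genome-wide 2.38. The region of highest fold stood on the genome-wide background. By fold the region with most reads therefore ranks 3 within the window.

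The remaining regions of the first 10 by fold were spread over both domains. The region from 84370169 to 84377854 was at 13.6-fold with 47 reads. Both regions just after the gene position, from 84580373 to 84583367 and from 84584052 to 84586639, were at 13.3-fold with 44 reads each. The region from 84556543 to 84566155, with its summit 19.8 kb before the gene position, was at 12.4-fold with 41 reads. The regions from 84333843 to 84336167 and from 84522128 to 84526390 shared 12.1-fold and 40 reads. Differences of a few reads among these are within counting error.

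The widest H3K27ac region of the whole list was in the far domain. It was the one with 91 reads, 15.5 kb wide, and ranked 1 in width among 93413. The next widest of the window ran from 84556543 to 84566155, in the domain with the gene, was 9.61 kb wide and ranked 12 in the list. The others of the first 5 were 8.02 kb (from 84313112), 7.69 kb (from 84370169) and 7.39 kb (from 84512700) wide. In all, 10 of the 112 regions (8.93%, interval 4.36 to 15.8%) were 4 kb or wider, against 0.457% of all H3K27ac regions. These 10 made up 47.9% of the acetylated length of the window. At the other end, 78 of the 112 (69.6%) were under 1 kb. A larger share of the whole list was under 1 kb, since its upper quartile of width was 668 bp, against 1342 bp here. The median was 547 bp against 355 bp over the whole list.

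H3K4me1 was wide at the same places. The widest H3K4me1 region ran from 84539319 to 84567200, was 27.9 kb wide, met 9 H3K27ac regions and ranked 6 in width among 155027. It ended 12.8 kb before the gene position. The next ran from 84352577 to 84367750, was 15.2 kb wide and lay entirely inside the widest H3K27ac region, so that acetylation reached beyond H3K4me1 at both ends. The third, from 84509299 to 84523491, was 14.2 kb wide and met 6 H3K27ac regions. The fourth and the fifth, from 84395087 to 84405055 and from 84375484 to 84384758, were 9.97 and 9.28 kb wide. Of the 72 H3K4me1 regions, 16 (22.2%, interval 13.3 to 33.6%) were 4 kb or wider, against 3.45% of all H3K4me1 regions.

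The highest H3K4me1 folds lay beside the highest H3K27ac folds. The region from 84390119 to 84394723 reached 12.6-fold with 59 reads, and the one from 84375484 to 84384758 reached 12.4-fold with 58. They were followed by regions from 84384985 to 84389813 (10.7-fold), from 84539319 to 84567200 (10.5-fold) and from 84575332 to 84580851 (10.3-fold, 48 reads). The first 3 of these overlap 3 of the 4 H3K27ac regions of highest fold, and the fifth ends beside the gene position. In all, 6 of 72 reached 10-fold or more (8.33%, interval 3.12 to 17.3%), against 1.12% of all H3K4me1 regions.

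**Figure D3:**
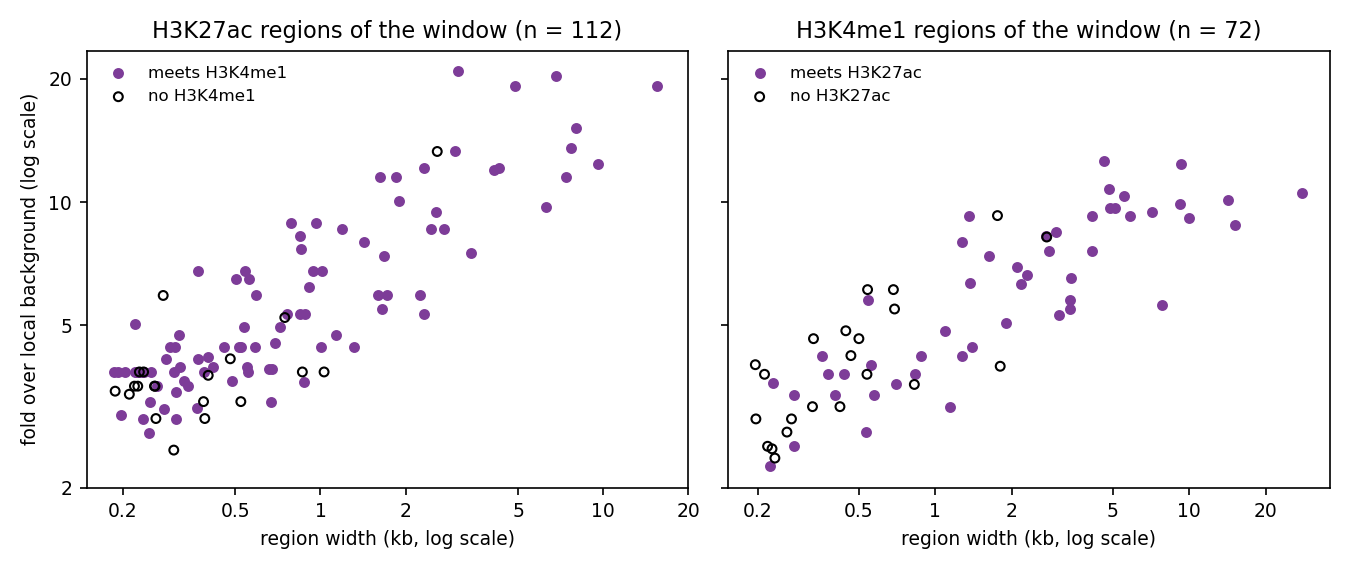
Width in kb (log scale) against the authors' fold (log scale) for the 112 H3K27ac regions (left) and the 72 H3K4me1 regions (right), each point 1 region of 1 library. Filled points meet the other mark by at least 1 bp and open points do not. Wider regions have higher folds, and open points are mostly narrow, with 1 open point among the strong H3K27ac regions, at 13.3-fold.

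Most regions carried both marks. Of the 112 H3K27ac regions, 92 overlapped an H3K4me1 region by 1 bp or more (82.1%, interval 73.8 to 88.7%), against 71.7% of all H3K27ac regions, and 66 (58.9%) lay entirely inside H3K4me1, against 45.8% of all. Of the 72 H3K4me1 regions, 50 (69.4%, interval 57.5 to 79.8%) met H3K27ac, against 33.6% of all H3K4me1 regions. Wider regions meet the other mark more easily by position alone, and regions here are wider than in the list, so these shares are not separate from width. When only as many H3K4me1 regions as H3K27ac regions were kept genome-wide, the share of H3K27ac regions with H3K4me1 was 71.4% in the window and 65.3% over the whole list. That difference is smaller than the one with all regions. No interval is given for it, so an excess in the window under this setting is not shown.

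The 20 H3K27ac regions without H3K4me1 were mostly weak. They had a median fold of 3.55 and a median width of 291 bp, against 4.84 and 664 bp for the 92 with it. Of the 20, 15 had 12 or fewer summit reads, against 38 of all 112 H3K27ac regions of the window. The median over the whole list was 13 reads, and the list's share at 12 or fewer is not given here. The highest of them was the region close to the gene position from 84584052 to 84586639, at 13.3-fold. The second was its neighbour from 84586918 to 84587195, at 5.91-fold with 19 reads. The third ran from 84338889 to 84339636 in the far domain, at 5.22-fold with 17 reads. The 22 H3K4me1 regions without H3K27ac had a median fold of 3.88 and a median width of 434 bp, against 6.32 and 2138 bp for the 50 with it.

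Around the Zfp36l2 position the arrangement of the marks was different from that of the far regions. From 84580852 to 84588214, just after the gene position, no H3K4me1 was called over 7.36 kb, while H3K27ac covered 84.3% of it. This stretch alone held 6.21 of the 18.6 kb that were acetylated without H3K4me1 in the whole window, or 33.4%. The H3K4me1 regions bounding it were strong, with 10.3-fold and 48 reads before it (from 84575332 to 84580851) and 8.28-fold and 48 reads after it (from 84588215 to 84590952).

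The H3K27ac regions in and beside this stretch were 3 of 10-fold or more and 1 below it. The region from 84580373 to 84583367 had its summit 2.67 kb after the gene position, and 16.0% of it lay in H3K4me1. The region from 84584052 to 84586639 had its summit 4.60 kb after the gene position and no H3K4me1. The narrow region from 84586918 to 84587195, at 5.91-fold, had none either. The region from 84587388 to 84589277 (10.05-fold, 33 reads) had its summit 8.01 kb after the gene position, 56.2% of its length in H3K4me1, and its summit outside it. The called regions nearest to the gene position itself were the H3K27ac region from 84579115 to 84580128 (6.80-fold, 22 reads), with its summit 0.637 kb before it, and the H3K4me1 region that ends at 84580851. Because that position is rounded, which of these regions lie on the gene or at its ends cannot be told.

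**Figure D4:**
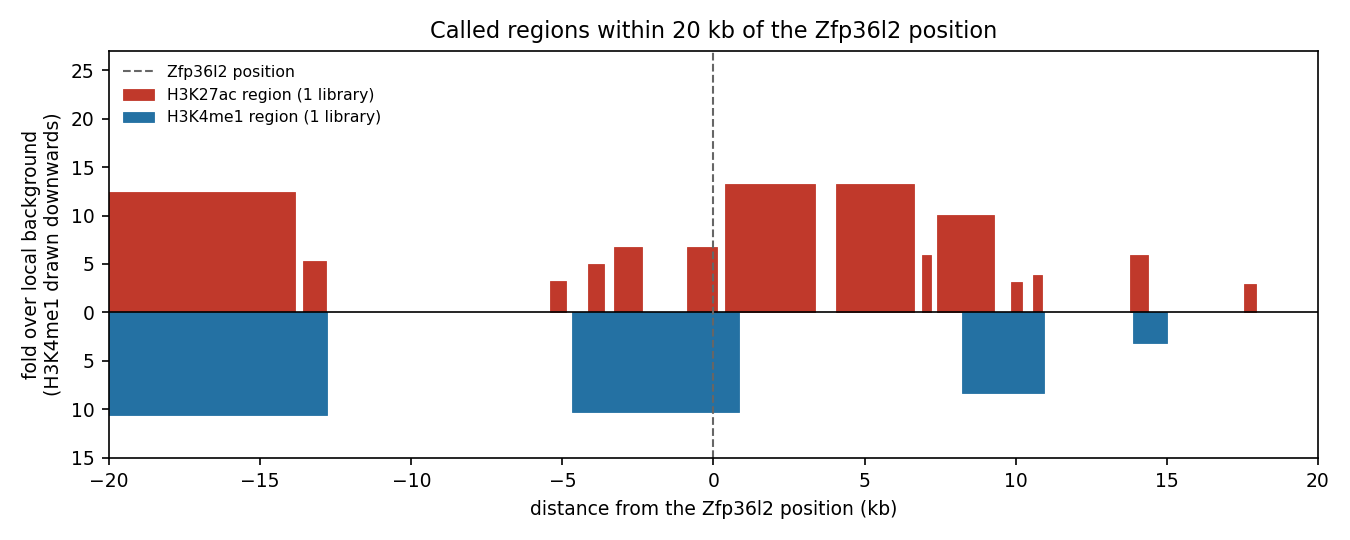
Called regions within 20 kb of the Zfp36l2 position. The x axis is the distance from that position in kb, bars are as wide as the regions, and height is the authors' fold for H3K27ac (red, upwards) and H3K4me1 (blue, downwards). Both H3K27ac regions of 13.3-fold stand over a stretch without H3K4me1, which has H3K4me1 regions of 10.3-fold and 8.28-fold on its sides.

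Away from the gene, strong acetylation lay inside H3K4me1. Over the window, 83 of the 112 H3K27ac summits (74.1%, interval 65.0 to 81.9%) lay inside an H3K4me1 region, against 58.2% of all H3K27ac summits. Of the 16 regions of 10-fold or more, 12 (75%, interval 47.6 to 92.7%) had the summit inside H3K4me1, against 25.6% of all regions of that fold. The other 4 were the 3 strong regions within 10 kb of the gene position and 1 at the far end, from 84260710 to 84262555 (11.5-fold, 38 reads), 33.0% of which lay in H3K4me1. Of the 13 regions of 10-fold or more farther than 10 kb from the gene position, 12 had the summit inside H3K4me1. The limit of 10 kb was chosen after these values had been seen.

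Width goes along with this. All 9 regions that were both 10-fold or more and at least 4 kb wide had the summit inside H3K4me1, against 67.7% of all such regions of the list. Of the 7 that were 10-fold or more and narrower, 3 had it inside, against 23.7%. The number of regions is small. The interval runs from 66.4 to 100% for the 9 wide ones and from 9.90 to 81.6% for the 7 narrower ones. Each includes the list's value, 67.7% and 23.7%, so a difference from the list is shown in neither width class. Wide ones made up 9 of the 16 here, against 313 of 7255 over the whole list. How much of the gap between 75% and 25.6% goes with width was not tested. A summit outside H3K4me1 with H3K4me1 at 1 kb on both sides was found at 2 of the 112 regions (1.79%). The interval of 0.217 to 6.30% includes the 5.85% of all regions. The 2 regions were those from 84407467 to 84407693 (3.84-fold) and from 84482574 to 84482943 (6.80-fold). The strong regions within 10 kb of the gene position were not among them, because the H3K4me1-free stretch there is wider than the 1 kb on either side.

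The distance between the summits of the marks varied widely. For the 12 H3K27ac regions of 10-fold or more with the summit inside H3K4me1, the summit of that H3K4me1 region lay a median of 1827 bp away, with a lowest distance of 89 bp and a highest of 10955 bp. Each region has 1 deposited summit, so further maxima inside wide regions are not seen.

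The local background was raised, more than 1.05 times the genome-wide level, at 27 of the 112 H3K27ac regions (24.1%), against 26.2% of all, and at 15 of the 72 H3K4me1 regions (20.8%), against 36.8% of all. The highest H3K27ac value was 1.98 times, at the region from 84401621 to 84405039 (7.51-fold, 42 reads), and the highest H3K4me1 value was 1.69 times, at the region from 84299294 to 84307123 (5.60-fold, 40 reads). Of the 27 H3K27ac regions, 7 met an H3K4me1 region whose background was raised as well. The matching share over the whole list is not given here, so this count cannot be read as high or low. A raised background lowers the fold of a region with given reads. What raised it was not tested.

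Against the 3 largest domains outside the window, both domains here had shorter spans, fewer regions and wider ones at the top. Those 3 lie on chromosome 6 from 133983590 to 134218398, on chromosome 19 from 32212182 to 32464426 and on chromosome 11 from 23949442 to 24274013. They held 130, 124 and 113 H3K27ac regions, against 59 in the far domain and 50 in the domain with the gene. Their spans were 234.8, 252.2 and 324.6 kb, against 192.1 and 142.1 kb. Per 100 kb they held 55.4, 49.2 and 34.8 H3K27ac regions, against 30.7 and 35.2. The domain with the gene was thus not sparser in regions than the third of them. Their widest H3K27ac regions were 6.34, 4.41 and 7.53 kb, against 15.5 and 9.61 kb, while the median widths were 573, 506 and 366 bp against 558 and 547 bp. Regions of 10-fold or more numbered 4, 6 and 4, against 9 and 7.

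Domains closer in acetylated length to the one with the gene do not all differ from it in this way. The domain of rank 7, on chromosome 4 from 154489641 to 154625146, held 46 H3K27ac regions, of which 7 reached 10-fold or more, and its widest was 9.66 kb. The domain of rank 9, on chromosome 14 from 122260317 to 122472556, held 77, of which 3 reached 10-fold or more, and its widest was 8.19 kb. Over the 8 domains of the first 10 that lie outside the window, the number of regions of 10-fold or more ran from 1 to 7 and the widest region from 4.16 to 9.66 kb. These are descriptions of domains chosen by size, and their differences were not tested.

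Of the H3K4me1 length, a larger part was acetylated in both domains of the window than in the other 8. H3K27ac lay on 73.2% of the H3K4me1 length in the far domain and on 67.6% in the domain with the gene, against 30.1 to 64.2% in the others. The values were 54.5, 50.2 and 42.5% in the 3 largest of them. H3K4me1 covered 59.6 and 54.7% of the spans here, within the 43.8 to 89.3% of the others. The H3K27ac summits lay inside H3K4me1 in 81.4% of regions in the far domain, within the range of 69.4 to 97.2% in the others, and in 66.0% in the domain with the gene, below it.

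**Figure D5:**
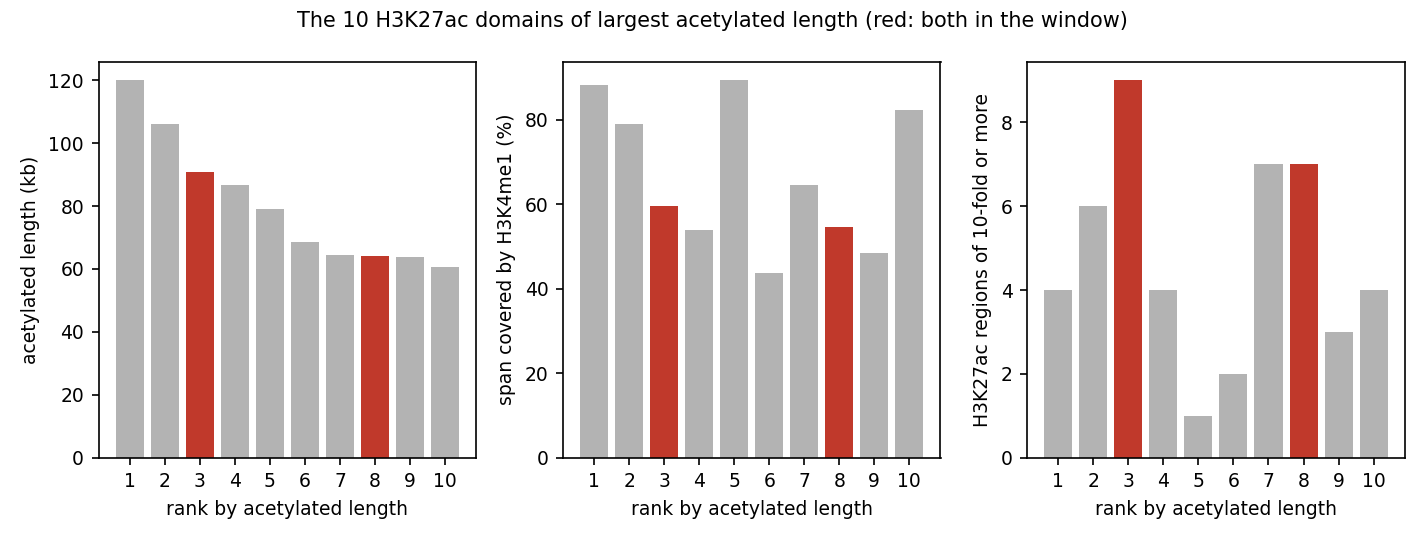
The 10 H3K27ac domains of largest acetylated length, by rank on the x axis. The bars give acetylated length in kb (left), the share of the span covered by H3K4me1 in percent (middle) and the number of H3K27ac regions of 10-fold or more (right). Red bars are the 2 domains of the window, at ranks 3 and 8, with 9 and 7 regions of 10-fold or more, and grey bars are the others.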

How the data were processed

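The 2 deposited peak lists, 1 per mark, were used. Per the submitters' processing notes, the tools were Bowtie2 2.0.6 and MACS2 2.0.10.20131216 with build mm9. The sources used here do not give caller options, duplicate handling or the control. The deposited fold is the ratio of summit to local background, and the deposited −log10 p and −log10 q belong to the summit. The deposited score was not used. Groups came from the sample titles. Coordinates are printed counting from 1.

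Reads per summit and local background were solved from fold and −log10 p, taking fold as (reads + 1)/(background + 1) and p as an upper Poisson probability. Whole reads gave the deposited −log10 p within 0.001 at all 93413 H3K27ac and 155027 H3K4me1 summits. The weakest called summits held 8 and 10 reads, and total depth is unknown. An overlap of 1 bp counted as meeting. The interval functions and the read recovery were tested on simulated data.

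The window and all limits were chosen with earlier results of these data known. Named regions followed a rule: the 10 H3K27ac regions of highest fold, the 5 widest of each mark, the 5 H3K4me1 regions of highest fold, the 3 highest of each mark without the other, those at the window's edges and nearest the gene, the bins with most and least acetylation, and the 3 largest domains elsewhere. Other regions were named after their values were seen. Alternatives changed the overlap rule, q, region number, membership, domains, windows and bins. No sequence is printed, since no mm9 genome was used here. Software was scipy 1.17.1, numpy 2.4.6, matplotlib 3.10.9, pandas 2.3.3 and Python 3.11.15.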

Additional observations from a re-analysis of the deposited data

How the results depend on the processing

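Of 57 alternative values, 33 stayed within the limits set (the counting interval for shares, 5 percentage points for a share of length, a factor of 1.5 for counts and lengths, an identical rank) and 24 moved. With a −log10 q of at least 5 and of at least 10 in both lists, the share of H3K27ac regions with H3K4me1 was 90.0% and 94.3%, the share of summits inside H3K4me1 83.3% and 85.7%, the share of 10-fold or more 26.7% and 45.7%, and the number of H3K27ac regions 60 and 35. The share of H3K4me1 regions with H3K27ac was 50.9% at 5, and 36 H3K4me1 regions were left at 10. Fewer regions pass a stricter q by construction. The share of H3K4me1 regions with H3K27ac was 83.3% with a distance of up to 1 kb. Shares of the whole list at these q limits and this distance are not given here. The window's shares therefore do not show how it differs from the list under these settings. With equal numbers of regions the H3K27ac share was 71.4%. The H3K27ac covered length stayed at 114.6 kb or more. Joining over 5 kb split the window into 14 domains, the q limit of 5 into 8, and joining over 20 kb left 1. That 1 domain reached beyond the window, from 84222275 to 84677331, and ranked 1 in acetylated length. The far domain and the domain with the gene, 3 and 8 as reported, ranked 1 and 8 by fold times width. They ranked 19 and 41 by number of regions and 10 and 30 by span. The window's second largest domain by acetylated length ranked 7 when joined over 5 kb and 5 under the q limit of 5. Bins of 20 kb left 0% of bins without H3K27ac, against 7.69%. For the other moves the cause was not tested. The weakest called H3K27ac summit of the list held 8 reads, so weaker acetylation could go unseen in regions without H3K27ac. How depth bears on this was not tested. No paired analysis was possible because only 1 library was made per mark.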
